A study of Vitis vinifera with 40 samples.

Results

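The 200 genes described here were abundant while grapevine embryogenic cultures grew on auxin medium and were low from the heart stage on. RNA was sequenced from 40 libraries of somatic embryos and regenerated plants of Vitis vinifera, cultivar Malvasia Istriana, started from anthers with their filaments and collected at 12 stages. Early induction (EI), pre-globular (PG) and the smaller and larger globular embryos (G1 and G2) came from auxin medium in the dark; heart (H), torpedo (T1 and T2) and cotyledonary 1 (C1) embryos came from hormone-free medium in the dark; cotyledonary 2 (C2) embryos had the same medium with long days; seedlings (S), seedlings with an epicotyl (EP) and juvenile plants (JP) had gibberellin and long days. There were 5 libraries of C2, 5 of EP and 3 of each other stage, described in the study as biological replicates, and no label says whether they came from separate cultures, so that p-values measure the spread between these libraries. The methods give 50 to 70 embryos per sample, depending on the stage, and describe EI as sieved cells and small clusters. The media are given here as the labels name them. By the methods, the auxin medium also held a cytokinin, and the germination medium held an auxin beside the gibberellin.

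The members were found by a rule on the measured values themselves. Raw counts were divided by DESeq2 size factors, which scale each library for its depth, and averaged per stage with 1 added. Genes with a mean of 100 or more in each of EI, PG and G1 were kept, which left 12978 of the 29971 genes. They were ranked by the lowest of these 3 means over the highest mean of the 8 stages from H to JP, and the first 200 were taken. High levels in EI to G1 and low levels from H on are therefore what the rule asked for and are given as a description, with no test. The G2 libraries and the order of the libraries within a stage were not asked for. Nor was a direction among EI, PG and G1 or among the later stages. Ranking by the lowest early mean and the highest later mean works against large differences within either group, however. The shares of members called between such stages carry this limit.

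Auxins are plant hormones that let somatic cells re-enter division. In somatic embryogenesis a synthetic auxin in the medium induces embryogenic cells and keeps them proliferating as proembryogenic masses, and its removal lets the globular embryos go on to the heart, torpedo and cotyledonary stages. Auxin acts through receptor-dependent loss of Aux/IAA repressors, which frees auxin response factors to act on their target genes. Cytokinins, the hormones that act through two-component signalling and type-A and type-B response regulators, are often added with the auxin.

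The name of the set fits the upper ranks better than the lower ones. The ratio of the rule was 74.7 for the first member, 3.40 at the median and 2.02 for the last, and it exceeded 10 in 45 members, lay above 5 and up to 10 in 23, above 3 and up to 5 in 44, and did not exceed 3 in 88. The last 5 members inside the limit had ratios of 2.03 to 2.02 and the next 5 genes outside it of 2.02 to 2.00, so that the end of the list marks no step in the data. Among the 12978 genes the median ratio was 0.539 and 982 genes exceeded 1. Reads remained in later stages, and 109 members had at least 1 count in every library. The contrast of the rule is also not one of auxin alone. According to the methods, the induction medium held a cytokinin together with 2 auxins, EI cells were kept in liquid medium before they were collected, and the germination medium held an auxin beside the gibberellin that the labels name. PG, G1 and G2 are themselves embryos, so that the auxin, the cytokinin and the developmental stage cannot be told apart in these samples. In whole embryos, fewer cells of a type and less RNA per cell cannot be told apart either.

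EI libraries had 2.79% ± 0.929 of their counts on the 200 genes, PG libraries 3.47% ± 0.295, G1 libraries 2.42% ± 1.56, G2 libraries 1.41% ± 0.503 and H libraries 0.272% ± 0.0277 (SD, n = 3 each). The share was 0.216% ± 0.0353 in T1, 0.213% ± 0.0434 in T2, 0.141% ± 0.0556 in C1 and 0.106% ± 0.0196 in S (SD, n = 3 each), 0.109% ± 0.0328 in C2 and 0.0486% ± 0.0268 in EP (SD, n = 5 each), and 0.0518% ± 0.00772 in JP (SD, n = 3). The EP libraries fell apart in this share, with 0.0297%, 0.0289% and 0.0304% in replicates 1 to 3 and 0.0676% and 0.0864% in the deeper replicates 4 and 5. Their size factors per 10000000 counts differed too, at 0.144 to 0.157 in replicates 1 to 3 and 0.392 and 0.511 in replicates 4 and 5. In normalised counts, the members' median log2 ratio to the other EP libraries was only -0.27 to -0.06. The part of this scale in the split was not tested. In C2, replicates 4 and 5 were likewise the highest in share, with 0.136% and 0.147%. Every library of EI to G2, with 0.873% to 3.99%, lay above every later one, with 0.0289% to 0.300%. The mean share of the 9 libraries of EI, PG and G1 was 21.4 times that of the 28 libraries of H to JP, a ratio that the rule favours and that 1 gene, VIT_01s0011g04570, raised, since it was 12.9 without it. Per gene, all 9 libraries of EI, PG and G1 lay above all 28 later libraries in 129 members (64.5%, against 1.56% of the 12978 genes), and without EI replicate 1, G1 replicate 2 and G2 replicate 3, which are described below, in 195, against 3.21% of the 12978 genes. These libraries were left out after the members were seen to be low in them, which raises the number by construction.

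**Figure D1:**
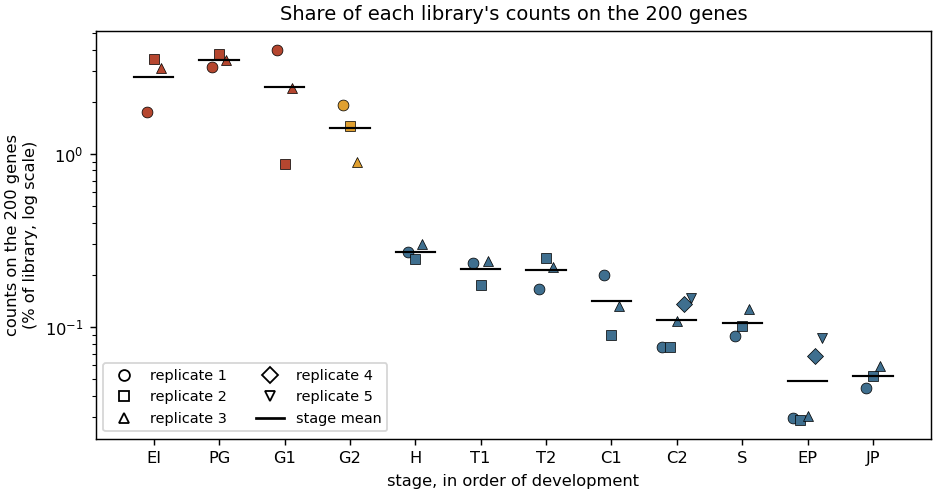
Percent of each library's counts on the 200 genes (vertical, log scale) by stage in order of development (horizontal); points are libraries, symbols are replicate numbers and bars are stage means. The 12 libraries of EI to G2 sit between 0.873% and 3.99%, above all 28 later ones, and EI replicate 1, G1 replicate 2 and G2 replicate 3 are the lowest of their stages.

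**Figure D2:**
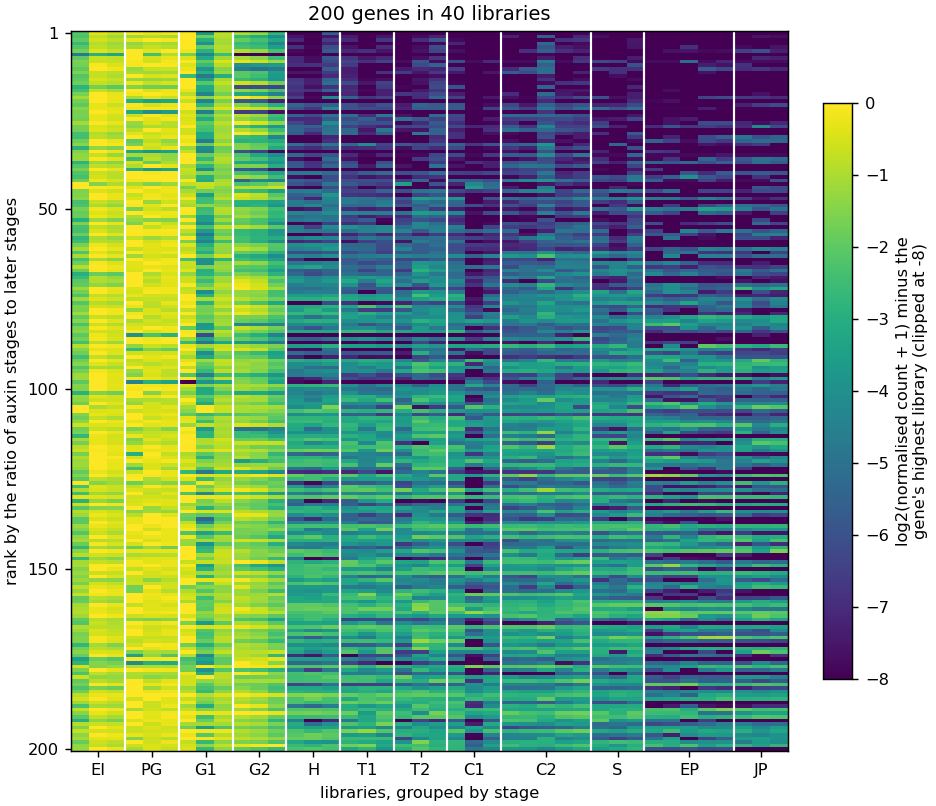
The 200 genes by rank (vertical) in the 40 libraries grouped by stage (horizontal), coloured by log2(normalised count + 1) minus the value of the gene's highest library. The step from G2 to H is seen in most genes, is deepest in the upper 50 and is missing in some genes of lower rank. The darker columns within EI, G1 and G2 are the 3 libraries named in the text.

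The gene at rank 1, VIT_18s0089g00950, showed the course most fully. Its normalised counts were 1165, 4123 and 3276 in EI, 4832, 4221 and 4611 in PG, 5140, 391 and 2866 in G1, and 2642, 2143 and 769 in the G2 libraries that the rule did not use. In H they were 4.43, 0 and 105, in T1 to S at most 21.0, and no read was counted in any of the 8 libraries of EP and JP, which allows up to 3 counts over the libraries of a stage by counting error alone. H replicate 3 was the only later library above 100. Members are given by identifier, since none is among the 45 genes of the name table used here, and other genes that the study discusses by name were not matched to identifiers.

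VIT_01s0011g04570, rank 3, was the member with most counts in EI, PG and G1. It had 88608, 242074 and 196717 normalised counts in EI, 282134, 347569 and 311908 in PG, 346925, 44469 and 166849 in G1, and 93906, 68211 and 36770 in G2. In H it had 2455, 1124 and 3632. It took between 26.9% and 51.6% of the counts of all members in the G1 libraries and between 22.6% and 28.8% in G2. Its neighbour by identifier, VIT_01s0011g04580, was also a member, at rank 35, with stage means of 111, 103 and 131 in EI, PG and G1 and 28.3 in G2. The members with the next highest levels were VIT_01s0010g01870, with means of 22044, 28764 and 9517 normalised counts in EI, PG and G1, and VIT_06s0004g01640, with 17985, 24139 and 8506. Since a count depends on the length of the gene, these figures rank the counts and not the transcripts.

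The other members among the first 10 ranged from means of 111 to 2114 normalised counts in EI, PG and G1. They were VIT_16s0013g01760 and its neighbour VIT_16s0013g01780, VIT_17s0053g01030, VIT_19s0015g01560 and VIT_19s0015g01660 from another run of neighbours, VIT_09s0002g04850, VIT_04s0008g06360 and VIT_14s0060g01000. VIT_04s0008g06360 kept 171, 145 and 90.4 normalised counts in G2, against 197, 141 and 192 in PG, and had at most 7.34 in any later library. VIT_09s0002g04850, in contrast, was already low in G2, with 4.84, 8.77 and 13.78 normalised counts. It was the exception among the first 10, for in the other 9 every library of EI to G2 lay above every later library.

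The order of the auxin stages differed between members. The highest of the 3 means was in PG for 121 members, in EI for 49 and in G1 for 30. Without EI replicate 1 and G1 replicate 2 these numbers were 89, 67 and 44, so that they rest in part on these 2 libraries. In the edgeR quasi-likelihood test with Benjamini-Hochberg adjustment over 24862 genes, 5 members (2.5%, against 2.08% of all genes) were higher in PG than in EI and 4 (2%, against 4.68%) were lower, at an adjusted p below 0.05. In either direction these were 9 members, against 6.77% of all genes, and the shares are near those of all genes.

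The 4 members that were lower in PG than in EI belong together by their course. VIT_07s0005g05960 had 316, 163 and 226 normalised counts in PG, against 869, 2710 and 2260 in EI (log2 fold change -3.07 ± 0.67 SE, adjusted p = 0.00685 by edgeR). Its G1 libraries had 1765, 111 and 890, and its G2 libraries 26.3, 29.8 and 12.9. The values were thus lower in PG than in EI, higher again in 2 of the 3 G1 libraries, and lowest in G2. The neighbours VIT_07s0005g05890 and VIT_07s0005g06010 had the same course, with log2 fold changes of PG over EI of -2.85 ± 0.71 and -3.04 ± 0.80, and so had VIT_00s2191g00010, with -2.78 ± 0.64 (SE; adjusted p = 0.0155, 0.0215 and 0.0104 by edgeR). The 3 neighbours may share reads if they are close copies, because how the counting treated reads matching several genes was not stated in the methods at hand. VIT_07s0005g05960 was also the only member that was higher in G1 than in PG, with a log2 fold change of 2.00 ± 0.64 (SE, adjusted p = 0.0254 by edgeR). Over all members, PG was lower than both EI and G1 in 34 (17%), against 36.7% of the 12978 genes.

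The 5 members that were higher in PG than in EI were VIT_09s0002g04850, VIT_09s0054g00660, VIT_18s0001g13740, VIT_13s0158g00100 and VIT_01s0150g00170. VIT_09s0002g04850 had 3717, 688 and 1938 normalised counts in PG, against 138, 501 and 382 in EI (log2 fold change 2.62 ± 0.74 SE, adjusted p = 0.0336 by edgeR). VIT_09s0054g00660 had 2580, 2349 and 2435 in PG, against 230, 706 and 572 in EI (log2 fold change 2.28 ± 0.60 SE, adjusted p = 0.022 by edgeR). In both genes the libraries of the stages did not overlap, although those of VIT_09s0002g04850 in PG spread widely. None of the 5 passed the test without EI replicate 1 or without EI replicate 3, and without PG replicate 1 or PG replicate 3 no member passed in either direction.

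From PG to G1 more members fell than rose when all libraries were used. In G1, 30 members (15%, against 6.97% of all genes) were lower than in PG and 1 (0.5%, against 13.5%) was higher, and the median log2 fold change of the members was -0.58, against 0.06 over all genes. VIT_09s0002g00140 had 665, 142 and 436 normalised counts in G1, against 4111, 3771 and 3976 in PG (log2 fold change -3.23 ± 0.59 SE, adjusted p = 0.000322 by edgeR). VIT_15s0048g02050 had 2209, 494 and 1536 in G1, against 8527, 13965 and 11714 in PG (log2 fold change -2.99 ± 0.53 SE, adjusted p = 0.000235 by edgeR). No library of G1 reached any library of PG in these genes. The number of members depended strongly on G1 replicate 2. Without this library 5 members were lower and 5 higher, so that no excess of lower members was left. The number fell to between 16 and 20, all lower, without PG replicate 1, 2 or 3 or G1 replicate 3. The shares of all genes in these smaller fits are not given here.

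G2, the auxin stage that the rule left out, held intermediate levels. The G2 mean was 54.7% of the mean of EI, PG and G1 at the median of the members, with quartiles of 33.5% and 72.7%, while over the 12978 genes the median was 94.2%. Without the 3 libraries named above the median of the members was 56.7%. G2 stood below 10% of the auxin mean in 10 members, between 10% and 50% in 73, between 50% and 100% in 97 and above 100% in 20. All G2 libraries lay above all H libraries in 181 members (90.5%, against 35.3% of the 12978 genes) and above all 28 later libraries in 140 (70%, against 3.08%). All G2 libraries lay below all 9 libraries of EI, PG and G1 in 33 members (16.5%, against 4.47%) and above all of them in 2 (1%, against 3.81%). The rule chose high levels in EI, PG and G1 and low levels from H on. It therefore favours G2 levels below the former and above the latter, and the differences from the 12978 genes follow in part from the choice. In G2 most members were still well above their later levels. The median level was 54.7% of the auxin mean in G2 and 9.20% in H, so that the falls before and after G2 were of similar size in these units. The mean share of counts was 2.89% over EI, PG and G1, 1.41% in G2 and 0.272% in H, with the larger fall before G2. That order rested on VIT_01s0011g04570. Without this gene the shares were 1.76%, 1.93% and 1.31% in EI, PG and G1, 1.04% in G2 and 0.256% in H. The fall after G2 was then the larger one. As a ratio, the step from G2 to H was the larger one on both measures.

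In the test of G2 against G1, 19 members (9.5%, against 1.14% of all genes) were lower in G2 and 0 (against 1.33%) were higher. At an unadjusted p below 0.05, 54 were lower, against 8.27% of all genes, and 4 higher, against 7.8%. DESeq2 called 26 lower, against 2.69% of the 24633 genes with an adjusted p, and 2 higher, against 2.61%. The median log2 fold change of the members was -0.50, against -0.04 over all genes. Because G1 entered the rule and G2 did not, the choice of members favours this direction. The libraries of G1 spread widely in these genes, and in a fit of the 6 libraries of G1 and G2 alone only 1 member passed. The share of all genes in that fit is not given here. Without any 1 library of G1 or G2 between 9 and 25 members passed, all of them lower, with 9 without G1 replicate 1, G2 replicate 2 or G2 replicate 3, 12 without G1 replicate 3 or G2 replicate 1, and 25 without G1 replicate 2.

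The members that were lower in G2 lay mostly among the upper ranks, with a median rank of 35. They shared no gene with the 30 members that were lower in G1 than in PG. Both tests use the G1 libraries, with opposite sign. A low G1 level favours a call in one and works against it in the other, so the lack of overlap follows in part from the tests. VIT_09s0002g04850 had 4.84, 8.77 and 13.78 normalised counts in G2, against 1144, 178 and 658 in G1 (log2 fold change -6.15 ± 0.91 SE, adjusted p = 0.000503 by edgeR). VIT_09s0018g01230 had 6.91, 7.02 and 6.03 in G2, against 565, 63.2 and 252 in G1 (log2 fold change -5.41 ± 0.97 SE, adjusted p = 0.00285 by edgeR). Its direct neighbour VIT_09s0018g01220, also a member, kept 538, 483 and 272 normalised counts in G2, against 1060, 305 and 568 in G1. The 3 members with the lowest G2 level relative to the auxin mean were VIT_09s0002g04850, with 0.879%, VIT_07s0005g05960, with 2.22%, and VIT_07s0005g06010, with 2.70%. All 4 members of the EI-high, PG-low course were among the 19, with log2 fold changes of -4.59 to -5.29. VIT_11s0016g04590, annotated in the study's gene ontology (GO) table as a plasma membrane transporter, was among them too, with 13.1, 14.0 and 20.7 normalised counts in G2, against 477, 36.1 and 224 in G1. It was also one of the 4 members whose mean was higher in H than in G2.

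At the other end, VIT_12s0134g00230 was highest in G2. It had 1038, 799 and 382 normalised counts there, against 149, 381 and 322 in EI, 58.2, 134 and 120 in PG and 234, 71.4 and 259 in G1, which put G2 at 385% of the auxin mean. G2 over G1 gave a log2 fold change of 1.99 ± 0.63 (SE, adjusted p = 0.0808 by edgeR), which did not pass the test, although the libraries did not overlap. The GO table annotates it to the response to auxin and to light. VIT_18s0001g08030, with 2094, 1901 and 1822 normalised counts in G2, and VIT_09s0054g00660, with 1661, 1808 and 2138, followed with 172% and 164% of their auxin means. For VIT_09s0054g00660 the G1 libraries, with 470, 261 and 647 normalised counts, stood apart between the high levels of PG and G2.

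**Figure D3:**
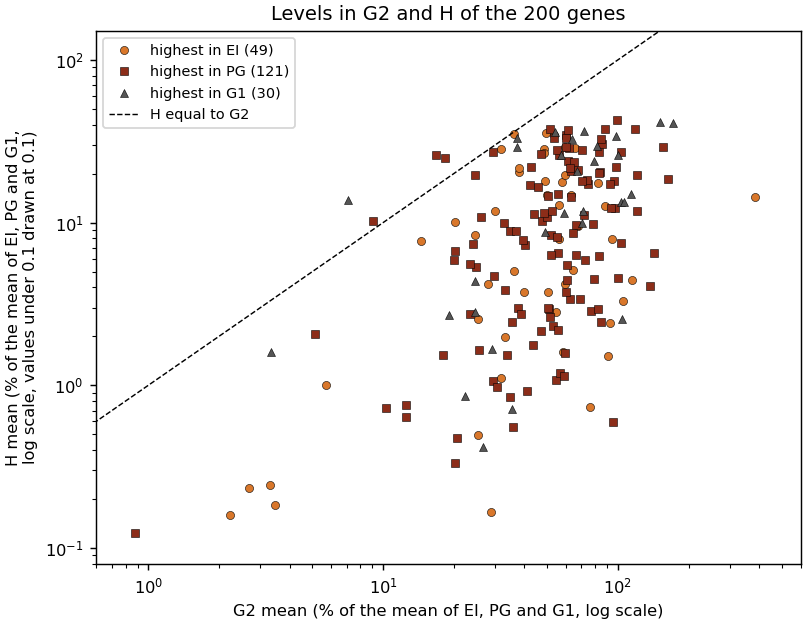
Mean level of each of the 200 genes in G2 (horizontal) and in H (vertical), both in percent of the mean of EI, PG and G1 on log scales; symbols give the auxin stage with the highest mean and the dashed line marks equal levels. The quartiles in G2 are 33.5% and 72.7%. Most genes lie far below the line, 4 lie above it, and the gene at 385% in G2 is VIT_12s0134g00230.

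From G2 to H most members dropped, which is given as a description because H was used by the rule. The H mean was 17.0% of the G2 mean at the median of the members, against 99.6% over the 12978 genes, and the median log2 fold change of H over G2 was -2.56, against -0.08 over all genes. It ranged from 0.575% to 195%. The transfer from auxin to hormone-free medium lies between these stages, and so does the change of shape from globular to heart, and they cannot be told apart.

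After the heart stage the members went different ways. The highest later mean was in H for 60 members, in T1 for 25, in T2 for 34, in C1 for 4, in C2 for 26, in S for 16, in EP for 17 and in JP for 18. Between T1 and H, 16 members (8%, against 6.54% of all genes) were lower in T1 and 8 (4%, against 8.91%) were higher, shares that are close to or below those of all genes. VIT_10s0071g00440 had 12.9, 13.9 and 15.6 normalised counts in T1, against 168, 222 and 154 in H (log2 fold change -3.62 ± 0.59 SE, adjusted p = 0.000169 by edgeR). It returned to a mean of 129 ± 38.68 in JP (SD, n = 3). VIT_13s0064g01580 had 9.88, 8.17 and 8.58 in T1, against 18.8, 17.7 and 117 in H (log2 fold change -2.47 ± 0.76 SE, adjusted p = 0.026 by edgeR), a difference that rested on H replicate 3 and was -0.98 without it. VIT_18s0001g01540 had 226, 311 and 239 in T1, against 98.0, 17.7 and 45.3 in H (log2 fold change 2.31 ± 0.71 SE, adjusted p = 0.0256 by edgeR). VIT_09s0018g01220 had 255, 190 and 158 in T1, against 95.8, 28.0 and 49.8 in H (log2 fold change 1.85 ± 0.60 SE, adjusted p = 0.034 by edgeR). Leaving out 1 library of T1 or H changed the number of members that passed to between 5, without H replicate 2, and 22, without H replicate 1, and to 11 without H replicate 3, 14 without T1 replicate 1, 8 without T1 replicate 2 and 9 without T1 replicate 3. A fit of the libraries of T1 and H alone called 52 members, 42 lower, against 14.2% of the 21311 genes in that fit, and 10 higher, against 17.5%.

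The neighbours VIT_12s0059g00310, VIT_12s0059g00370 and VIT_12s0059g00420 were higher again in T1 and, by their stage means, in C2. VIT_12s0059g00370 had 187, 451 and 728 normalised counts in T1, against 203, 2.44 and 24.9 in H (log2 fold change 2.61 ± 0.90 SE, adjusted p = 0.0451 by edgeR), with libraries that overlapped. It had 1.37, 26.1 and 35.3 in T2 and 893, 808, 592, 363 and 494 in C2. The others had log2 fold changes of T1 over H of 2.69 ± 0.90 and 2.57 ± 0.76 (SE; adjusted p = 0.0389 and 0.021 by edgeR). In all 3 genes the highest later mean was in C2 and G2 stood at 46.8% to 51.2% of the auxin mean.

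By the juvenile plant most members had fallen further. In JP, 105 members (52.5%, against 27.8% of all genes) were lower than in H and 12 (6%, against 27.5%) were higher, together 117 members, against 55.3% of all genes. Leaving out any library of these stages gave 100 to 111 members. The median log2 fold change of the members was -1.505, against -0.11 over all genes. In 17 members no read was counted in any JP library, and with the 13 of them that exceeded the floor of 3 counts in H set at their bound the median was -1.46. VIT_05s0049g01800 was among these 17, with 185, 143 and 163 normalised counts in H (adjusted p = 5.97e-08 by edgeR), and it was at least 123-fold lower in JP against a floor of 3 counts over the JP libraries. VIT_00s0194g00170 had 1.23, 0 and 0 in JP, against 879, 985 and 830 in H (adjusted p = 1.41e-07 by edgeR). Its earlier course was a stepwise one, since it had 4585, 3543 and 1704 in G2 and 195, 189 and 210 in T1. The late stages differ from the early ones in scale, for the size factor per 10000000 counts was 0.240 to 0.309 in JP, against 0.615 to 0.645 in H, so that normalised levels in JP are higher than shares of counts would make them. With DESeq2 size factors in the same test, 98 members were lower and 13 higher, without the shares of all genes at hand.

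The 12 members that were higher in JP included genes of the GO table. VIT_07s0141g00270, annotated in the GO table to the response to auxin and to the nucleus, had 422, 164 and 322 normalised counts in JP, against 19.9, 9.14 and 28.4 in H (log2 fold change 3.82 ± 0.56 SE, adjusted p = 9.48e-07 by edgeR). It was also higher in T1 than in H, with a log2 fold change of 1.51 ± 0.53 (SE, adjusted p = 0.0485 by edgeR), and it stayed below its auxin-stage means of 847 to 1434. VIT_08s0056g00220 had 4.93, 19.2 and 20.8 in JP, against 0.554, 0 and 2.49 in H (log2 fold change 3.52 ± 0.94 SE, adjusted p = 0.00203 by edgeR), a small level beside means of 337, 455 and 116 in EI, PG and G1. VIT_10s0003g00030, annotated as a transcription factor with a role in fruit development, had 99.7, 110 and 107 in JP, against 20.5, 34.1 and 38.3 in H (log2 fold change 1.62 ± 0.32 SE, adjusted p = 8.81e-05 by edgeR). For these genes the low point was the embryo on hormone-free medium and not the end of the series.

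**Figure D4:**
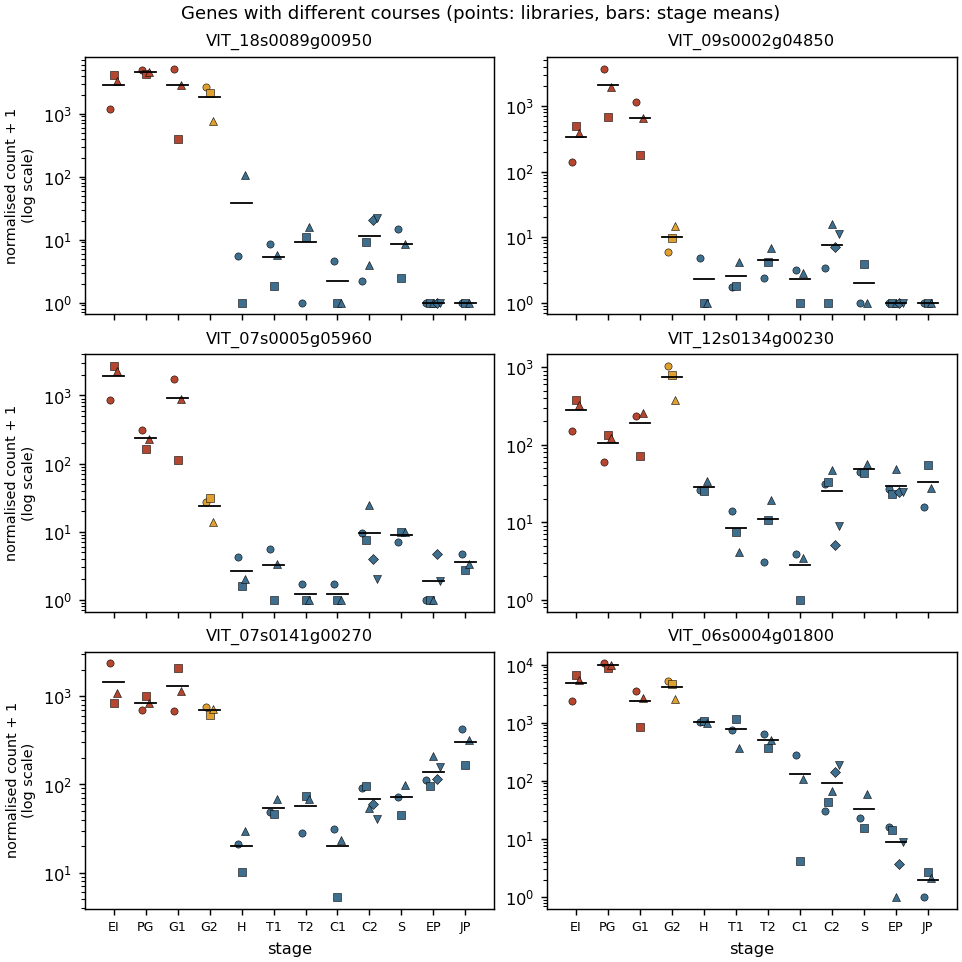
Normalised counts + 1 (log scale) of 6 members by stage; points are libraries, with colours for EI to G1, G2 and the later stages and symbols for replicate numbers, and bars are stage means. VIT_18s0089g00950 drops from G2 to H, VIT_09s0002g04850 and VIT_07s0005g05960 drop before G2, VIT_12s0134g00230 is highest in G2, VIT_07s0141g00270 returns to 164 to 422 in JP, and VIT_06s0004g01800 is highest in PG, lower in G1 than in G2, and declines over the stages from H to 0 to 1.75 in JP.

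Functions were at hand for few members. The part of the study's GO table at hand covers 1075 genes and 10 of the 200 members. Beside the genes already described, VIT_06s0004g01800 is annotated as a transcription factor with roles in telomere maintenance and the root meristem. It had 3450, 853 and 2691 normalised counts in G1, against 10577, 8875 and 9683 in PG (log2 fold change -2.03 ± 0.74 SE, adjusted p = 0.049 by edgeR). It had 0, 1.75 and 1.15 in JP, against 1037, 1061 and 978 in H (adjusted p = 7.82e-08 by edgeR). VIT_08s0040g00710, annotated as an exonuclease, had 1094, 661 and 873 in G1, against 4321, 3316 and 3681 in PG (log2 fold change -2.07 ± 0.44 SE, adjusted p = 0.00122 by edgeR). VIT_01s0150g00140, annotated as a ubiquitin transferase that acts in DNA methylation and heterochromatin, and VIT_01s0010g01830, annotated as a DNA helicase of excision repair, were lower in JP than in H, with log2 fold changes of -2.49 ± 0.40 and -1.45 ± 0.44 (SE; adjusted p = 3.91e-06 and 0.00559 by edgeR). VIT_18s0001g07930, annotated to oligopeptide transport, had 2.46, 1.75 and 4.62 in JP, against 404, 456 and 385 in H (log2 fold change -7.16 ± 0.64 SE, adjusted p = 1.23e-10 by edgeR). VIT_18s0001g02340, a ubiquitin ligase annotated to the defense response, had means of 2152 in G2, 1394 in H and 1362 in JP, with a log2 fold change of JP over H of -0.18 ± 0.28 (SE, adjusted p = 0.618 by edgeR).

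The wider lists from the same table were set beside the members for the step from G2 to H, where edgeR called 10.2% of all genes higher and 12.3% lower in H. Of 17 tested genes of the response to auxin, 7 were lower in H and 3 higher. Among the lower ones 2 are members, which the rule chose for low levels in H, and 5 remain without them. Of 6 genes of the response to cytokinin, 1 was lower and 1 higher. Of 58 transcription factors, 10 were lower, or 8 without the 2 members among them, and 5 higher. Of 21 genes of embryo development, 0 were lower and 3 higher; of 13 of pollen development, 1 was lower and 2 higher; and of 53 of the defense response, 6 were lower and 7 higher. Since the table at hand is the first part of a longer one, these counts describe the listed genes only. They also depended on the libraries, for the lists held 40 called genes in all, but 18 without G2 replicate 2, 19 without H replicate 2, 22 without G2 replicate 1 and 84 in a fit of G2 and H alone. Of the 45 genes in the name table used here, 29 passed the minimum, and RRA1, a type-A response regulator of cytokinin signalling, came nearest to the list among these, at rank 527 of the 12978 genes. It had 195.5, 54.2 and 119 normalised counts in H, against 941, 779 and 551 in G2 (log2 fold change -2.65 ± 0.50 SE, adjusted p = 0.000353 by edgeR), but it returned to a mean of 680 in T1 and 1021 in C2. The type-B response regulators RRB3 and RRB5 had log2 fold changes of H over G2 of 0.56 and 0.30, the gibberellin repressor GAI1 of -0.03 and the abscisic acid biosynthesis gene NCED2 of 0.85, none of which passed the test (adjusted p = 0.257, 0.424, 0.973 and 0.215 by edgeR).

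By their identifiers 50 members fell into 22 groups of neighbours, of which 5 held 3 or more members and 16 members in all. Neighbours were at most 100 apart by identifier, so that genes outside the list can lie between them. The span of the group of 4 members held 11 listed genes, and the spans of the groups of 3 held 10 to 12. How many such groups a random choice of genes would give was not tested, and the groups are given as a description. The largest group was VIT_10s0003g03520, VIT_10s0003g03560, VIT_10s0003g03610 and VIT_10s0003g03620, each with its highest mean in PG. VIT_10s0003g03610 had 1621, 2910 and 2295 normalised counts in PG and 1503, 1143 and 509 in G2, and the 4 genes had G2 levels of 50.8% to 104% of their auxin means. In VIT_19s0015g01560, VIT_19s0015g01600 and VIT_19s0015g01660 the G2 levels were likewise close together, at 51.6% to 59.3%, but the ranks were 6, near the end of the list and 8, because VIT_19s0015g01600 kept 207, 265 and 221 normalised counts in H, against 3.88, 1.83 and 19.9 for VIT_19s0015g01560. In VIT_18s0001g07930, VIT_18s0001g07950 and VIT_18s0001g08030 the courses differed, with G2 at 36.0%, 33.2% and 172% of the auxin mean. Neighbouring genes of similar sequence may share reads.

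The members moved together between libraries of the same stage, which the rule did not ask for since it used stage means. EI replicate 1 was the lowest library of EI in 191 members (95.5%, against 51.0% of the 12978 genes). G1 replicate 2 was the lowest of G1 in 182 (91%, against 44.7%), and G2 replicate 3 the lowest of G2 in 182 (91%, against 51.7%). All 3 held at once in 168 members (84%, against 29.0%). The members' median log2 ratio to the other libraries of the stage was -1.18 in EI replicate 1, -1.57 in G1 replicate 2 and -0.90 in G2 replicate 3, while that of the 12978 genes lay between -0.07 and 0.00. The highest library exceeded the lowest by a median of 2.48 times in EI, 3.62 times in G1 and 2.03 times in G2 for the members, against 1.44, 1.496 and 1.18 times for the 12978 genes. In PG, by contrast, it did so by 1.32 times for the members and 1.21 times for the 12978 genes. In later stages, where levels are low, C1 replicate 2 was the lowest of its stage in 154 members (77%, against 35.9%), with a median log2 ratio of -1.48, and T2 replicate 1 in 134 (67%, against 39.97%), with -0.87. The spread of the members was 4.05 times in C1, 4.003 times in EP and 3.20 times in C2, against 1.64, 2.096 and 1.58 times for the 12978 genes. These libraries were picked out after their values were seen. In share of counts, G1 replicate 2, with 0.873%, was close to G2 replicate 3, with 0.899%, and below G2 replicates 1 and 2, with 1.90% and 1.44%.

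In 7 members the libraries stood the other way, with EI replicate 1 and G1 replicate 2 the highest of their stages (3.5%, against 37.9% of the 12978 genes). They were VIT_02s0025g04940, VIT_04s0023g01500, VIT_11s0052g01250, VIT_18s0001g05990, VIT_07s0141g00270, VIT_18s0001g08030 and VIT_08s0007g08670. VIT_07s0141g00270, the gene of the response to auxin that returned in JP, had 2373, 844 and 1086 normalised counts in EI and 677, 2118 and 1140 in G1.

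**Figure D5:**
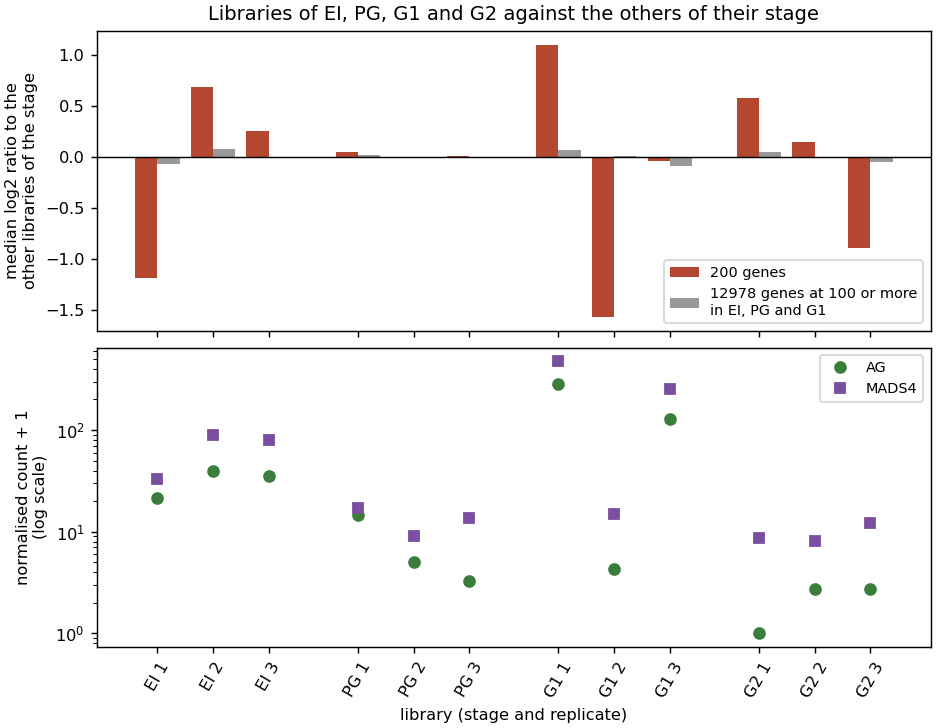
Upper panel: median log2 ratio of each library of EI, PG, G1 and G2 to the others of its stage, for the 200 genes and for all 12978 genes that passed the minimum. Lower panel: normalised counts + 1 (log scale) of AG and MADS4 in the same libraries. The members are lowest in EI replicate 1 (-1.18), G1 replicate 2 (-1.57) and G2 replicate 3 (-0.90), and AG and MADS4 are lowest in the same libraries of EI and G1 but not of G2.

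Of 3 floral genes, AG and MADS4 moved with the members in part of these libraries and AP1 did not. The explants were anthers and filaments, and according to the methods PG embryos were mainly attached to explant tissue. The list of 3 floral genes holds AG, which specifies stamens and carpels, AP1, which specifies sepals and petals, and MADS4, a floral MADS-box gene. AG had 285, 3.28 and 127 normalised counts in G1 and MADS4 had 474, 14.0 and 253, so that both were lowest in G1 replicate 2, as most members were. In EI, AG had 20.3, 38.3 and 34.7 and MADS4 31.8, 87.7 and 79.6, again lowest in replicate 1. In G2 they had 0, 1.75 and 1.72 (AG) and 7.60, 7.02 and 11.2 (MADS4), with no low value in replicate 3, and in PG 13.6, 3.99 and 2.30 (AG) and 16.1, 7.98 and 12.7 (MADS4). AP1 did not follow them, for it had 12.35, 6.53 and 6.56 in EI and 7.79, 18.87 and 18.15 in G1, highest in EI replicate 1 and G1 replicate 2. The 3 genes together had 64.4 to 133 normalised counts in EI, 25.9 to 52.0 in PG, 36.1 to 766 in G1 and 20.7 to 34.5 in G2. AG had 34.5 to 57.7 in JP. The part of floral tissue in the levels of the members, and in their spread within EI and G1, was not tested. LHCA2, a light-harvesting gene of green tissue, was also lowest in EI replicate 1 and G1 replicate 2, with 3.53, 13.1 and 8.43 normalised counts in EI and 24.8, 0.82 and 20.2 in G1. It had 0.69, 0.88 and 1.72 in G2 and a mean of 24271 in JP. Its part in the spread was not tested either.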

How the data were processed

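After rRNA depletion and paired-end sequencing on an Illumina NextSeq 500, the authors aligned reads to the 12X assembly of grapevine (BBMap) and deposited raw counts, whole numbers of reads for every open reading frame that were not normalised. The submitters' processing notes name FastQC 0.11.7, SAMtools 1.11 and R 4.0.4. How multi-mapped reads and strand were handled was not stated in the methods at hand. Libraries held 13774534 to 68058022 counts, and floors cover counting error only. Libraries were assigned from the sample labels. Of the identifiers, 0 matched the RefSeq gene list, so no names, lengths or sequences were taken from it, and functions come from the study's GO table.

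Members were chosen as described above. Counts were tested with edgeR 4.0.16 (quasi-likelihood test, TMM factors, filterByExpr, 1 model of all 40 libraries and 12 stages, Benjamini-Hochberg adjustment over 24862 genes, threshold 0.05), with limma 3.58.1, DESeq2 1.42.0, R 4.3.3 and Python 3.11.15 (matplotlib 3.10.9). The test was tested on simulated data. For genes at 0 in all libraries of a stage the floor was 3 counts over the stage.

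The members, gene lists and tests were chosen with earlier results of these data known. Named genes were the first 10 by ratio; the 3 with most counts; per contrast the 2 with the largest fold change in each direction among those past the threshold, with libraries that did not overlap and at least 100 normalised counts in either stage (10 for T1 over H and JP over H); the 3 highest and 3 lowest in G2 relative to the auxin mean; members of the GO lists; and groups of 3 or more neighbours, at most 100 apart by identifier. Genes named outside this rule, among them the other members in the GO table and the 7 of reversed library order, were chosen after their values were seen. Alternatives were DESeq2, DESeq2 size factors, no filter, the replicate block, the libraries of the compared stages alone, other settings of the ranking and leaving out each library. Added after seeing the data were leaving out EI replicate 1, G1 replicate 2 and G2 replicate 3 together and leaving out the member with most counts.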

Additional observations from a re-analysis of the deposited data

Results flagged for a closer look

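Among the first 10 members, single libraries of C2 and EP stood apart from the other 4 of their stage in 7 of 21 tests. In C2 it was replicate 3 each time, the highest library for VIT_17s0053g01030 with 10.3 normalised counts (next highest 1.00), VIT_16s0013g01780 with 38.2 (13.1), VIT_19s0015g01560 with 22.0 (8.07), VIT_04s0008g06360 with 7.34 (1.00) and VIT_14s0060g01000 with 4.40 (0). C2 replicate 3 was also the highest C2 library for the floral gene AG, with 52.9 normalised counts, against 2.02 to 28.0 in the other 4, and the part of this in the values was not tested. In EP, replicate 3 was the highest for VIT_04s0008g06360 with 4.71 normalised counts (next highest 0.575), and replicate 1 the lowest for VIT_19s0015g01560 with 0 (next lowest 3.72). All these values are small beside those of the auxin stages. The tests set the gap to the nearest library against the range. Where a single library holds reads the gap equals the range by construction, and tests that share C2 replicate 3 are not independent. No chance rate is therefore given for these flags.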

How the results depend on the processing

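Counts of members past the threshold stayed within 1.5 times with DESeq2 and with DESeq2 size factors, without the filter and with the replicate block (9 for PG over EI, 35 for G1 over PG, 21 for G2 over G1, 25 for T1 over H, 117 for JP over H, 46 for the GO lists). Same-numbered libraries deviated together with correlations of -0.23 to 0.30, so the numbers do not pair them. Fitting the compared stages alone gave 1 for G2 over G1 (19 in the model of all libraries), 52 for T1 over H (24) and 84 for the GO lists (40); the cause was not tested. Without EI replicate 1, G1 replicate 2 and G2 replicate 3, 4 members passed for PG over EI (9), 13 for G1 over PG (31) and 12 for G2 over G1 (19), with fewer samples. Leaving out 1 library gave 0 to 9 for PG over EI, 10 to 38 for G1 over PG, 9 to 25 for G2 over G1, 5 to 22 for T1 over H, 100 to 111 for JP over H and 18 to 31 for the GO lists (18, 19 and 22 without G2 replicate 2, H replicate 2 and G2 replicate 1). The ratio of shares of counts was 12.9 without the member with most counts, 17.5 from normalised counts and 20.4 to 23.3 without 1 library. Of the 200 members, 170 to 199 remained without 1 library, 190 with TMM factors, 198 and 192 with 0.1 and 10 added, 163 and 145 with a minimum of 50 and 200, and 181 with stage medians. For the named genes, 161 values kept their direction and call, 30 lost the call and 0 changed direction. Levels under about 10 normalised counts, such as those of 76 members in EP and 79 in JP, rest on few reads.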
